A study of Homo sapiens with 12 samples.

Results

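Transcripts of 7 genes tied to neural crest and glial cell states, NGFR, MYRF, SCRG1, NES, L1CAM, FABP7 and RXRG, were followed through 12 libraries from human melanoma cells in which MITF was depleted. They are the genes of a list of 8 that were matched by symbol among 12616 genes, and AQP1, the remaining entry, is not analysed here. The list was chosen by what these same libraries had shown of changes with doxycycline (Dox) and of differences between the lines, so the levels and changes of the 7 genes are a description: no p-value is given for them, and how many of them passed the threshold used for all genes is stated once, with nothing read from it. MeWo and SkMel28, both cutaneous melanoma lines, each carried a Dox-inducible short hairpin RNA against MITF. Each line was kept for 8 days with 0 µg/ml Dox (control) or 1 µg/ml Dox, with 3 libraries per line and dose, which gave the groups MeWo control, MeWo Dox, SkMel28 control and SkMel28 Dox. Per the labels MeWo grew in EMEM and SkMel28 in RPMI, both with serum, so line and medium cannot be told apart. No Dox-treated cells without the MITF hairpin were analysed here, so effects of the hairpin and of the drug cannot be told apart either.

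Melanocytes descend from the neural crest, the embryonic population that also gives rise to Schwann cells and other peripheral glia, partly by way of Schwann cell precursors. MITF is the transcription factor that drives the melanocyte programme of pigment and survival genes, and melanoma cells with little MITF can express neural crest and glial genes instead. NGFR, the low-affinity neurotrophin receptor, is a marker of neural crest cells and of that state, and RXRG, a nuclear receptor that pairs with other receptors to read retinoid signals, is also used to mark it. MYRF is a membrane-bound transcription factor that drives myelin genes in oligodendrocytes. SCRG1 is a small secreted protein first found in scrapie-infected brain. NES encodes nestin, an intermediate filament of neural progenitors. L1CAM is an adhesion molecule of growing axons, and FABP7 is the brain fatty acid-binding protein of radial glia and Schwann cell precursors.

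Upstream sequence is shown for the gene with the largest rise in SkMel28 (SCRG1), for a gene that was higher with Dox in both lines (RXRG) and for FABP7, which like SCRG1 holds letters of a SOX motif. Each run is the 250 bases before the start of the transcript in RefSeq (GRCh38.p14), 5′ to 3′ on the strand of the gene, and capitals mark the letters ACAAAG. The SCRG1 window and most of the RXRG window lie within the gene spans given below, as do the L1CAM windows searched.
SCRG1, chr4:173399117-173399366, minus strand: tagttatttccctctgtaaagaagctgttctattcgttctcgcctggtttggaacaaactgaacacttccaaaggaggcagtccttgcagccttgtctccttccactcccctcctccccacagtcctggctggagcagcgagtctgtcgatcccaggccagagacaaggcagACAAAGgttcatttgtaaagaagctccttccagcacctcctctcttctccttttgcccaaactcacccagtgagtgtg
FABP7, chr6:122779466-122779715, plus strand: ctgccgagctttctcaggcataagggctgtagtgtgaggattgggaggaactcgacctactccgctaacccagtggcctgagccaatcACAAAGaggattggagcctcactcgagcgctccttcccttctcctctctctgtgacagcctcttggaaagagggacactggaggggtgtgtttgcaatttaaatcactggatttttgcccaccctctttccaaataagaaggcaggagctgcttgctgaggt
RXRG, chr1:165445127-165445376, minus strand: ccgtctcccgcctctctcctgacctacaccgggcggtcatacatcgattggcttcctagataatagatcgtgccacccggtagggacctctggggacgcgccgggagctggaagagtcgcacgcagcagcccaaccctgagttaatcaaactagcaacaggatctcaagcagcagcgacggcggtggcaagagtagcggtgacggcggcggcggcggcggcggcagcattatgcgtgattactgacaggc

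RefSeq entries were matched for SCRG1, NES, L1CAM, FABP7 and RXRG, and 4 motifs were searched in them on both strands. The MITF-family E-box was searched as CACGTG, the core of its M-box as CATGTG, and SOX sites as ACAAAG first and, in a second search of the same kind, as ACAATG. The letters ACAAAG began 78 bases before the start of SCRG1 and 162 bases before the start of FABP7, and the windows of NES, L1CAM (2 starts) and RXRG held none of the 4 motifs. Among 35116 windows of the same length, 6.345% held the E-box letters, 9.417% the M-box letters, 13.72% the first SOX letters and 9.286% the second, so a single match is common and is given as a description of the letters only.

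RNA was read at the 3′ ends of polyadenylated transcripts, and values are reads normalised to an effective library size and scaled to 1000000, called the level below. Libraries held 2568187 to 3714608 reads, and 1 read was worth a level of 0.278 to 0.389. Agreement between replicates across genes was lowest in MeWo Dox (r = 0.960 to 0.976) and 0.979 to 0.985 in the other groups. Changes are differences of group means of log2(level + 1) with the standard error (SE) from a limma fit over all 12 libraries, and a gene is said to be called when its adjusted p was under 0.05. With 3 reads or fewer in every library a group is said to be at the floor, which is a level of 0.835 to 1.17 per library. Folds against it divide the mean of the other group by the floor. They are given as "at least" and leave out counting error in that other group. Scaling to spike-in RNAs would shift the median gene by 0.22 (log2) in the MeWo change and by −0.079 in the SkMel28 change. Nothing in the labels says that the replicates came from separate cultures, and p-values measure the spread between these libraries, which may be technical. In bulk RNA, fewer cells of a type and less RNA per cell cannot be told apart.

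The depletion was partial. MITF (chromosome 3, 69739456 to 69968336, + strand, hg38) stood at 657, 663 and 708 in MeWo control and at 451, 354 and 371 in MeWo Dox, and it decreased by 42.0% (log2 −0.79, SE 0.11, limma adjusted p = 6.49e-05). Its SkMel28 levels were 861, 739 and 792 without Dox against 575, 578 and 552 with it, a mean that decreased by 28.7% (log2 −0.49, SE 0.11, limma adjusted p = 0.00705), a call lost without a mean-variance trend. The labelled cell type was checked with 6 melanocytic markers (MITF, PMEL, MLANA, TYR, DCT and TYRP1), all of which were analysed. Their summed level was 12728 to 12917 in MeWo control and 6310 to 7851 in MeWo Dox, and 10770 to 12034 against 6306 to 6478 in SkMel28. Of the markers of other cell types, LUM and DCN were the 2 of 7 fibroblast markers analysed (summed level 41.5 to 47.8 in MeWo control, 9.85 to 19.2 in MeWo Dox, 10.9 to 13.3 and 6.04 to 8.91 in SkMel28). KRT10 was the 1 of 6 keratinocyte markers analysed (131 to 153 and 145 to 160 in MeWo, 86.2 to 104 and 111 to 117 in SkMel28) and CD68 the 1 of 6 leukocyte markers (132 to 151 and 57.5 to 147 in MeWo, 78.2 to 100.9 and 18.7 to 23.0 in SkMel28), while 0 of 4 endothelial markers were analysed. The part of these marker levels in the results was not tested.

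For NGFR and RXRG every Dox library lay above every control library in both lines. NGFR (chromosome 17, 49495293 to 49515008, + strand) stood at 11.5, 12.4 and 9.39 in MeWo control and at 67.0, 73.1 and 73.5 in MeWo Dox. The 3 Dox libraries lay far above the 3 controls, with means of 11.1 ± 1.56 and 71.2 ± 3.64 (SD, n = 3), a 6.41-fold difference and a log2 change of 2.58 (SE 0.28). In SkMel28 the receptor was scarce. Its reads were 0, 3 and 1 in the control libraries, which is at the floor, and 14, 6 and 14 in the Dox libraries (levels 4.16, 2.01 and 4.23). Here too every Dox library lay above every control, and the mean was at least 3.54-fold higher. The SkMel28 log2 change of 1.64 (SE 0.28) depends on the pseudocount at such counts. The difference between the changes in the lines was 0.95 (SE 0.39) with a pseudocount of 1 and −0.51 with a pseudocount of 0.1, so its sign is not fixed by these data. In the order of levels, MeWo Dox, MeWo control, SkMel28 Dox and SkMel28 control, no neighbouring groups overlapped. Without Dox, NGFR was at least 11.4-fold lower in SkMel28 than in MeWo.

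RXRG (chromosome 1, 165400922 to 165445355, − strand), whose upstream window without a motif is printed above, varied little between replicates. It stood at 14.1, 16.7 and 17.8 in MeWo control and at 36.4, 33.4 and 35.2 in MeWo Dox (16.2 ± 1.90 and 35.0 ± 1.53, 2.16-fold, log2 1.07, SE 0.19). In SkMel28 it stood at 6.96, 5.71 and 6.13 without Dox and at 12.5, 13.0 and 9.97 with Dox (6.27 ± 0.636 and 11.8 ± 1.63, 1.89-fold, log2 0.81, SE 0.19). The difference between the changes was 0.25 (SE 0.27), or 0.61 with scaling to the spike-ins, and the SkMel28 control level was 2.59-fold below the MeWo control level (log2 difference −1.24, SE 0.19). Its order of groups was that of NGFR, again without overlap between neighbours. The residual SD of RXRG (log2 scale) was 0.143, and 83.4% of the 8073 genes with a mean level of at least 10 had a larger one.

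The other retinoid X receptors were taken as paralogs of RXRG and were tested, although earlier results of these data were known. The mean of RXRA was 37.5 without and 49.3 with Dox in MeWo (log2 0.39, limma adjusted p = 0.0707), and 28.2 and 36.8 in SkMel28 (log2 0.38, limma adjusted p = 0.105). Although the 3 Dox libraries lay above the 3 controls in each line, neither change was called. RXRB changed by −0.064 in MeWo (limma adjusted p = 0.836) and by 0.23 in SkMel28 (limma adjusted p = 0.436). Whether RXRG changed more than its paralogs was not tested.

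**Figure D1:**
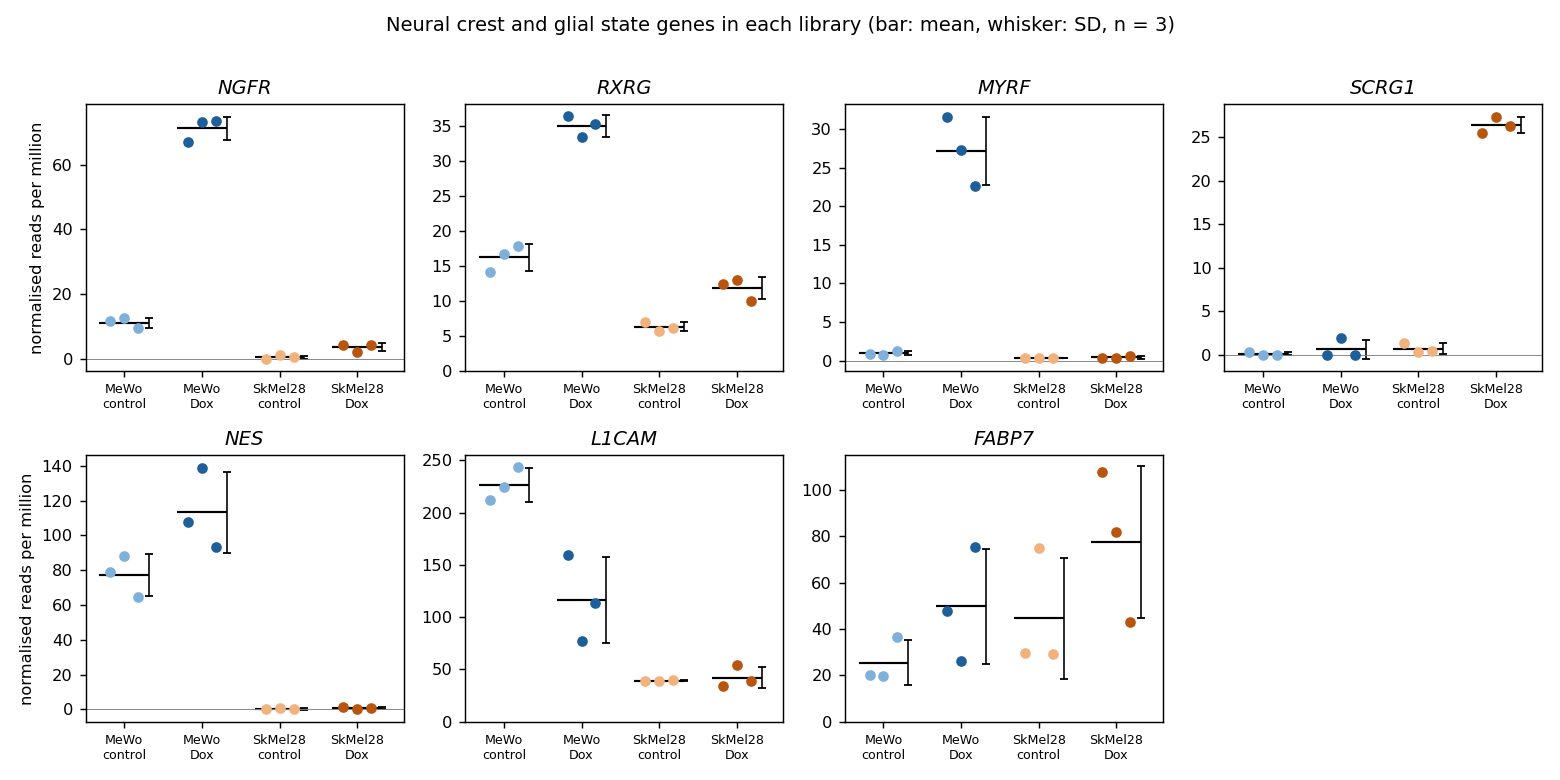
Level (normalised reads, linear axis, own scale per panel) of the 7 genes in each of the 12 libraries, with points for libraries, a bar for the mean and a whisker for the SD of each group (n = 3). NGFR and RXRG are higher with Dox in both lines, MYRF stands out in MeWo Dox (22.7 to 31.6) and SCRG1 in SkMel28 Dox (25.5 to 27.4), and the FABP7 libraries spread widely in every group.

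MYRF and SCRG1 were each near the floor in 3 groups and abundant in the remaining one, which was MeWo Dox for MYRF and SkMel28 Dox for SCRG1. MYRF reached a level of 1 in 4 libraries and SCRG1 in 5, 3 of them in that group, so both entered the table, which asks for 3 such libraries, through the group where they were high. MYRF (chromosome 11, 61752636 to 61788518, + strand) had 3, 2 and 4 reads in MeWo control and 99, 72 and 67 reads in MeWo Dox, which are levels of 0.864, 0.777 and 1.30 against 31.6, 27.3 and 22.7. The ratio of the pooled, depth-corrected reads was 27.7 (95% counting interval 14.3 to 61.3), and the log2 change was 3.83 (SE 0.25). In SkMel28 it had 1, 1 and 1 reads without Dox and 1, 1 and 2 with Dox, so both groups were at the floor and no fold is given. With Dox, the SkMel28 level was at least 29.1-fold below that of MeWo. The pooled ratio of SkMel28 Dox to MeWo Dox was 0.0152 (95% counting interval 0.0041 to 0.0393). The difference between the log2 changes was 3.75 (SE 0.35). MYRF overlaps TMEM258 on the opposite strand, and since the strand used in counting is not given in the sources used here, reads from the pair may not have been separated.

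SCRG1 (chromosome 4, 173384701 to 173406380, − strand), which holds ACAAAG upstream of its RefSeq start but within this span, had the opposite pattern. It had 5, 1 and 1 reads in SkMel28 control and 86, 82 and 87 reads in SkMel28 Dox, levels of 1.39, 0.317 and 0.383 against 25.5, 27.4 and 26.3. The pooled ratio was 35.2 (95% counting interval 16.9 to 88.5) and the log2 change 4.07 (SE 0.37). In MeWo it had 1, 0 and 0 reads without Dox and 0, 5 and 0 with Dox, and the groups overlapped. A single library, MeWo Dox replicate 2, held all 5 reads. The log2 change in MeWo was 0.39 (SE 0.37), and without that library it was −0.12. The difference between the changes, MeWo minus SkMel28, was −3.68 (SE 0.52).

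NES and L1CAM differed mainly between the lines. NES (chromosome 1, 156668763 to 156677407, − strand) stood at 78.9, 88.2 and 64.5 in MeWo control and at 108, 139 and 93.5 in MeWo Dox (77.2 ± 12 and 113 ± 23.4). The Dox libraries lay above the controls by 1.47-fold, with a log2 change of 0.54 (SE 0.31). In SkMel28 it had 0, 2 and 0 reads without Dox and 5, 0 and 3 with Dox, and these groups overlapped. Nestin mRNA was at the floor in SkMel28 control, at least 78.8-fold below MeWo control (log2 difference −6.04, SE 0.31).

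L1CAM (chromosome X, 153861514 to 153886173, − strand) was the only gene of the 7 whose 3 Dox libraries all lay below the 3 controls in a line, which was MeWo. It stood at 212, 225 and 244 in MeWo control and at 159, 76.9 and 114 in MeWo Dox (227 ± 16.3 and 117 ± 41.2). The mean decreased by 48.6% with no overlap, a log2 change of −1.01 (SE 0.20). The MeWo Dox libraries themselves differed 2.07-fold, and the change was −1.27 without the highest of them (replicate 1) and −0.75 without the lowest (replicate 2). MITF ran in the same order in these 3 libraries (451, 371 and 354), which are too few to read a link from, and none was tested. In SkMel28, L1CAM stood at 39.0, 39.3 and 39.5 without Dox and at 34.1, 53.8 and 39.0 with Dox, overlapping groups with a log2 change of 0.079 (SE 0.20). The difference between the changes was −1.09 (SE 0.29), or −0.72 with scaling to the spike-ins. Without Dox the SkMel28 level was 5.78-fold below that of MeWo (log2 difference −2.50, SE 0.20), and with Dox it was 2.76-fold below.

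FABP7 (chromosome 6, 122779716 to 122784074, + strand), the other gene with ACAAAG upstream, varied widely between replicates. It stood at 20.2, 19.8 and 36.6 in MeWo control and at 47.6, 26.2 and 75.5 in MeWo Dox, while SkMel28 control libraries stood at 29.8, 74.9 and 29.1 and SkMel28 Dox libraries at 108, 81.9 and 42.9. The Dox and control libraries overlapped in both lines. The log2 changes were 0.87 in MeWo and 0.83 in SkMel28 (SE 0.40 for each), and all neighbouring groups in the order of its levels overlapped. The highest library of a group was 1.85 to 2.89 times the lowest. Its residual SD of 0.676 (log2 scale) compares with a median of 0.222 over the 8073 genes, and only 0.359% of them had a larger one. These spreads are well above counting error, since each library held 51 to 363 FABP7 reads.

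**Figure D2:**
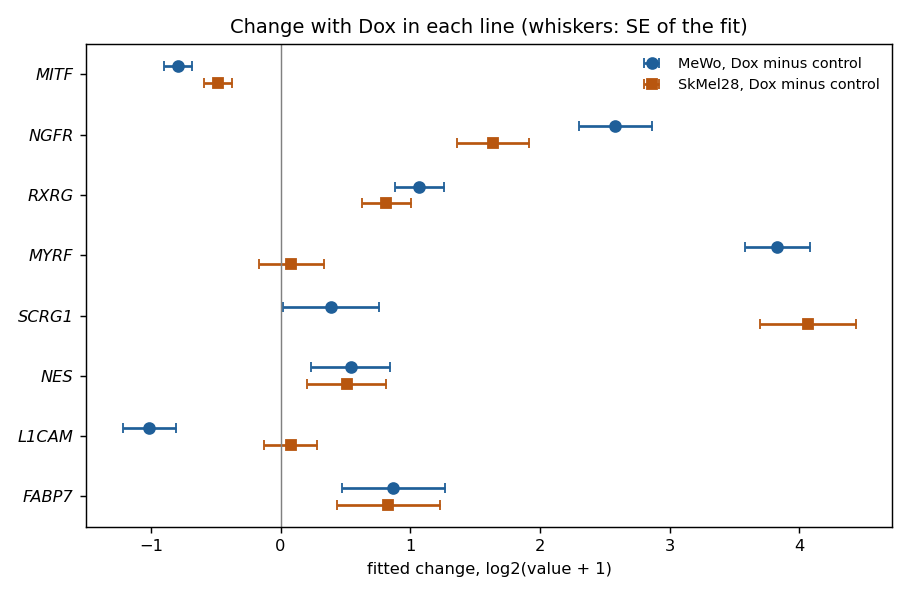
Fitted change with Dox on the log2(level + 1) scale (x axis) for MITF and the 7 genes (y axis), with circles for MeWo, squares for SkMel28 and whiskers for the SE of the fit. MYRF (3.83 in MeWo) and SCRG1 (4.07 in SkMel28) each moved in 1 line, NGFR and RXRG in both, and L1CAM lay below 0 in MeWo (−1.01).

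Of the 7 genes, 3 were called higher in MeWo Dox (NGFR, MYRF and RXRG; 8.58% of all genes were) and 1 lower (L1CAM; 8.12%). In SkMel28, 3 were called higher (NGFR, SCRG1 and RXRG; 5.88%) and 0 lower (5.04%). All 3 Dox libraries lay above all 3 controls for 4 genes in MeWo (14.1% of all genes) and for 3 in SkMel28 (16.1%), and below them for 1 in MeWo (14.7%) and 0 in SkMel28 (16.1%). The difference between the lines' changes was called for MYRF, SCRG1 and L1CAM (7.09% of all genes). In SkMel28 control against MeWo control, 4 were lower (NGFR, NES, L1CAM and RXRG; 24.8%) and 0 higher (26.6%). Nothing is read from these counts, because the list was selected on these contrasts, and the contrast of the control libraries shares its libraries with the Dox contrasts.

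The genes whose levels ran most like each of the 7 were found by Pearson's r of log2(level + 1) over the 12 libraries among 9025 genes. The libraries fall into 4 groups, so these coefficients mostly describe the order of group means. NGFR ran most like HOXC9 (r = 0.986), SCCPDH (0.985) and COL18A1 (0.982). Among the genes closest to RXRG were PDP1 (0.979) and RBPJ (0.979), and with NGFR itself its r was 0.966. MYRF ran most like LRPAP1 (0.964), TUBB2B (0.963) and ARHGEF40 (0.959), and SCRG1 most like GBP2 (0.958), WWP2 (0.95) and ANGPTL7 (0.945). NES ran most like FHOD1 (0.991), DCAF7 (0.991) and S100A16 (0.990). L1CAM ran most like SLC39A6 (0.988), PPP1CC (0.987) and NEK3 (0.986). For FABP7 the closest were weaker, ABCD3 (0.925), TXNRD1 (0.911) and CLINT1 (0.908). Within the 7, the r of NGFR with NES was 0.896 and with MYRF 0.890, and that of SCRG1 with NGFR was −0.31.

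The wider neural crest and glial programme was examined in 10 lists of genes with related roles, 188 genes besides the 7, of which 112 were analysed here. The lists were drawn up with earlier results of these data known, so the shares below are a description. In MeWo 32 of the 112 rose with Dox (28.6%, against 8.58% of all genes) and 13 fell (11.6%, against 8.12%), with a median log2 change of 0.18 against 0 over all genes. In SkMel28 27 rose (24.1%, against 5.88%) and 4 fell (3.57%, against 5.04%), with a median of 0.23 against 0.0029. GAP43 and NRP1 (MeWo rises), DHRS3 (SkMel28 rise) and TGM2 (MeWo fall) would not have entered the table without the group where they were high. The filter therefore bears on their calls. The MeWo split was 39 higher and 6 lower with scaling to the spike-ins (2097 and 383 over all genes). The MeWo count was 28 without MeWo Dox replicate 3 (1301 over all genes, against 2107 with every library). Genes called in both lines numbered 17. Of these, 14 rose in both (among them SOX2, ERBB3, CDH19, CDH2, ITGA4, TNC, S100B, PTPRZ1, SYNM, CHL1, ALCAM and ITGB1), 0 fell in both (2 at an unadjusted limma p under 0.05, POU3F1 and PPARA, and 0 with edgeR or DESeq2), and TFAP2A, ETS1 and GPM6B fell in MeWo and rose in SkMel28. The share of all genes called in both lines is not given here, so nothing is read from the overlap of the 2 lines. Genes listed by name without values, here and below, were named after their calls were seen.

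**Figure D3:**
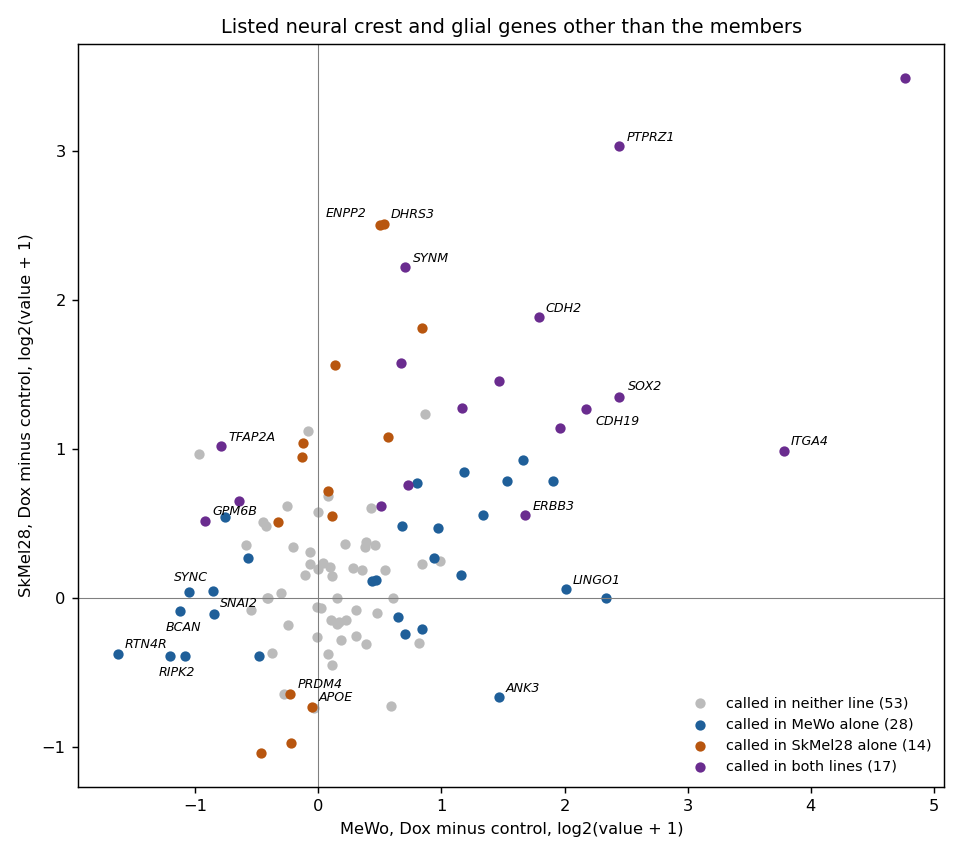
Log2(level + 1) change with Dox in MeWo (x axis) and SkMel28 (y axis) of the 112 listed genes other than the 7, coloured by whether they were called in neither line (53), MeWo alone (28), SkMel28 alone (14) or both (17). PTPRZ1 lies towards the upper right (2.44 and 3.03), and TFAP2A and GPM6B at the upper left, having fallen in MeWo and risen in SkMel28.

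Receptors and adhesion molecules of the neural crest and of Schwann cell precursors mostly rose where they were called. In MeWo 9 of the 14 analysed rose and 1 fell (PMP22), with a median change of 1.5, and in SkMel28 7 rose and 1 fell (KIT), with a median of 0.55. Of all genes, 8.58% were called higher and 8.12% lower in MeWo, and 5.88% and 5.04% in SkMel28. The counts of this and each later list are to be set beside these shares. Of the MeWo rises, GAP43 had a mean of 4.37 in MeWo Dox and 0 in the other groups. NRP1 had 1.92 in MeWo Dox, 0.723 in SkMel28 Dox and 0 in the controls. Both entered the table only through MeWo Dox, so the filter bears on their calls. The SkMel28 count of 8 was 4 without SkMel28 Dox replicate 2.

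ITGA4, the α4 integrin subunit of migrating crest cells, rose in MeWo from 2.02, 1.55 and 2.27 to 33.5, 34.9 and 51.5 (log2 3.78, SE 0.24, limma adjusted p = 1.10e-08). In SkMel28 its change was 0.99 (limma adjusted p = 0.0129), a call lost without SkMel28 control replicate 3 (0.90) or SkMel28 Dox replicate 2 (0.81). The cadherins of this list rose in both lines. CDH2, N-cadherin, stood at 30.2 ± 0.0930 without and 113 ± 43.5 with Dox in MeWo (log2 1.79), and at 13.0 ± 2.96 without and 50.4 ± 8.07 with Dox in SkMel28 (log2 1.88), and CDH19, a cadherin of Schwann cell precursors, changed by 2.18 and 1.27. The CDH19 call in SkMel28 was lost when that line was fitted alone (limma adjusted p = 0.0682). ERBB3, the neuregulin receptor that Schwann cell precursors depend on, rose by 1.68 in MeWo (105 to 340) and by 0.56 in SkMel28 (88.3 to 130), where it was not called with scaling to the spike-ins.

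Among 21 neural crest transcription factors, 7 rose in MeWo (SOX8, SOX2, PAX3, ZIC2, NR2F1, NR2F2 and ZEB2) and 4 fell (SOX10, TFAP2A, SNAI2 and ETS1). In SkMel28 4 rose (SOX2, FOXD3, TFAP2A and ETS1) and 0 fell (0 also at an unadjusted limma p under 0.05, with edgeR and with DESeq2). The SOX10 call was near the threshold (log2 −0.57, SE 0.19, limma adjusted p = 0.0455). Its level was 293 ± 3.68 in MeWo control and 208 ± 89.7 in MeWo Dox, where the libraries spread widely. The MeWo count of 11 was 4 when MeWo was fitted alone and 7 without MeWo control replicate 2 or 3 or without MeWo Dox replicate 2 or 3. Without MeWo Dox replicate 1 the MeWo count was 13 and the SkMel28 count was 7. SOX2, a factor of stem cells and glial progenitors, stood at 2.02, 2.72 and 1.62 in MeWo control and at 12.1, 18.9 and 16.9 in MeWo Dox (log2 2.44, SE 0.28, limma adjusted p = 9.18e-06). In SkMel28 control it was at the floor and in SkMel28 Dox at 2.67, 3.34 and 2.72, at least 2.97-fold higher (limma adjusted p = 0.00407). SOX2 lies within SOX2-OT on the same strand, and reads of the pair may not have been separated. SNAI2 encodes Slug, a transcriptional repressor of migrating crest cells. It fell in MeWo from 66.0 to 37.3 (log2 −0.85, limma adjusted p = 0.00693), a call lost with scaling to the spike-ins and when MeWo was fitted alone.

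The Schwann cell and oligodendrocyte myelin list, to which MYRF is closest by role, moved less. In MeWo 4 of 20 rose (among them GJB1, POU3F2 and NDRG1) and 1 fell (GPM6B), and in SkMel28 3 rose (among them ENPP2 and GPM6B) and 0 fell (3 at an unadjusted limma p under 0.05, 1 with edgeR and 1 with DESeq2). The MeWo count of 5 was 2 without MeWo Dox replicate 3, 10 without MeWo Dox replicate 1 and 1 when MeWo was fitted alone. MBP, the myelin basic protein gene, was called in neither line (−0.24 and −0.19). ENPP2, which encodes autotaxin, rose in SkMel28 from 1.39, 1.27 and 0 to 9.80, 9.36 and 7.86 (log2 2.5, limma adjusted p = 8.14e-05). In MeWo it was at the floor without Dox and at 0.319, 1.52 and 1.02 with Dox.

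Of 10 astroglial and radial glial genes, 3 rose in MeWo (S100B, NOTCH1 and PTPRZ1) and 1 fell (BCAN), and in SkMel28 4 rose (S100B, VIM, PTPRZ1 and CD44) and 2 fell (GLUL and APOE). The MeWo count of 4 was 6 without MeWo Dox replicate 1. PTPRZ1, a receptor phosphatase of glial progenitors, rose from 5.18, 3.89 and 2.59 to 38.9, 20.5 and 19.3 in MeWo (log2 2.44, limma adjusted p = 8.17e-06) and from 4.73, 3.49 and 6.51 to 46.9, 47.1 and 44.7 in SkMel28 (log2 3.03, limma adjusted p = 1.68e-06). S100B, a calcium-binding protein of glia that melanoma cells also make, had mean levels of 62.9 without and 248 with Dox in MeWo, and of 510 and 1123 in SkMel28. BCAN, the matrix proteoglycan brevican, fell in MeWo from 31.5 to 14 (log2 −1.12, limma adjusted p = 0.00986), and APOE, a lipid carrier of astrocytes, fell in SkMel28 from 48.7 to 29.0 (log2 −0.73, limma adjusted p = 0.00339). The BCAN call was lost with a pseudocount of 0.1.

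Of 12 neurotrophin receptor partners of NGFR, 2 rose in MeWo (SORCS1 and LINGO1) and 3 fell (TRAF6, RTN4R and RIPK2). These are 16.7% and 25%, against 8.58% and 8.12% of all genes. In SkMel28 0 rose (1, SORCS1, at an unadjusted limma p under 0.05, and 1 with edgeR and with DESeq2, against 5.88% of all genes) and 1 fell (PRDM4, 8.33% against 5.04%). The SkMel28 counts are near the shares of all genes, and nothing is read from them. The MeWo count of 5 was 3 without MeWo control replicate 2 or 3 or without MeWo Dox replicate 2 or 3, and 2 when MeWo was fitted alone. LINGO1 and RTN4R encode co-receptor proteins that bind with NGFR in the complex that senses myelin inhibitors. LINGO1 rose in MeWo from 4.90, 2.33 and 3.89 to 17.6, 14.4 and 21.0 (log2 2.01, SE 0.24, limma adjusted p = 1.61e-05), while RTN4R, the Nogo receptor, fell from 18.1, 20.6 and 14.6 to 8.62, 4.17 and 3.39 (log2 −1.63, SE 0.28, limma adjusted p = 0.000568).

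RIPK2, a kinase that can dock to the NGFR death domain, was at 19.6, 29.5 and 23.0 in MeWo control and at 20.7, 5.69 and 7.45 in MeWo Dox. The groups overlapped through MeWo Dox replicate 1, and its call (log2 −1.21, limma adjusted p = 0.0185) was lost without MeWo control replicate 2 or 3, without MeWo Dox replicate 2 or 3, and when MeWo was fitted alone. PRDM4, a zinc finger protein that binds NGFR, changed by −0.65 in SkMel28 (limma adjusted p = 0.048). That call was lost under most alternatives, edgeR and DESeq2 among them.

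Of 6 other intermediate filament genes listed beside NES (NEFL, NEFM, SYNM, SYNC, LMNA and KRT18), SYNM rose in both lines and SYNC fell in MeWo. SYNM, synemin, a partner of nestin in filaments, rose in MeWo, 8.86 to 15.3 (log2 0.71, limma adjusted p = 0.0129), and more in SkMel28, 47.7 to 226 (log2 2.22, limma adjusted p = 4.86e-07), although NES itself was scarce in SkMel28. The MeWo call of SYNM was lost without MeWo control replicate 1 (0.60), without MeWo Dox replicate 3 (0.60) and with MeWo fitted alone. SYNC, syncoilin, went from 7.22 to 2.98 in MeWo (log2 −1.05, limma adjusted p = 0.018). Its call was lost with scaling to the spike-ins, with DESeq2, with a pseudocount of 0.1 and without MeWo control replicate 3 (−0.95) or MeWo Dox replicate 2 (−1.0). SYNC overlaps RBBP4 on the opposite strand.

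Relatives and ligands of L1CAM rose where they moved, while L1CAM was lower with Dox in MeWo. Of 13 analysed, 5 rose in MeWo (CHL1, ALCAM, ANK3, ITGB1 and ITGB3) and 6 in SkMel28 (CHL1, NRCAM, ALCAM, ITGAV, ITGB1 and DCX), and 0 fell in either (1, EZR, at an unadjusted limma p under 0.05 in SkMel28, and 0 with edgeR and DESeq2). The MeWo count was 2 without MeWo control replicate 2 and with MeWo fitted alone, and the SkMel28 count was 4 without SkMel28 control replicate 2 and 3 on the spike-in scale. CHL1, the close homologue of L1, stood at 69.6 ± 4.01 without and 160 ± 33.5 with Dox in MeWo (log2 1.17, limma adjusted p = 1.53e-05), and at 69.5 ± 4.51 and 169 ± 7.27 in SkMel28 (log2 1.27, limma adjusted p = 1.26e-05). ANK3, an ankyrin that anchors L1 proteins to the cytoskeleton, rose in MeWo from 1.73, 5.05 and 5.83 to 11.2, 12.1 and 13.9 (log2 1.47, limma adjusted p = 0.00652), a call lost with a pseudocount of 0.1 and with MeWo fitted alone. In SkMel28 Dox it was at the floor.

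Among 11 retinoid genes, ALDH1A3 rose and TGM2 fell in MeWo, and ALDH1A1 and DHRS3 rose in SkMel28. The MeWo counts are 9.09% each way, near the 8.58% and 8.12% of all genes, and nothing is read from them. The SkMel28 rises are 18.2%, against 5.88%. The ALDH1A enzymes make retinoic acid. TGM2 had at most 9 reads in any library and entered the table only through MeWo control. The MeWo count of 2 was 1 without MeWo control replicate 2 or 3 or MeWo Dox replicate 3, with the stricter filter, with MeWo fitted alone and with edgeR or DESeq2, and 3 without MeWo Dox replicate 1. The SkMel28 count of 2 was 1 without SkMel28 control replicate 3 or SkMel28 Dox replicate 1 or 2 and with a pseudocount of 0.1, and 3 without MeWo control replicate 2. DHRS3, a retinaldehyde reductase that is induced by retinoic acid, was at 2.23, 0.317 and 4.98 in SkMel28 control and at 16.3, 12.7 and 18.7 in SkMel28 Dox (log2 2.51, SE 0.39, limma adjusted p = 0.000381), and it was at the floor in both MeWo groups. Of 4 fatty acid-binding proteins and PPARs, PPARA was called lower in MeWo (log2 −0.48, limma adjusted p = 0.0378), and its change of −0.39 in SkMel28 was not called (limma adjusted p = 0.114). The PPARA call was lost without any single MeWo control library or MeWo Dox replicate 3, among others. AQP11 was the aquaporin analysed, with at most 5 reads per library.

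**Figure D4:**
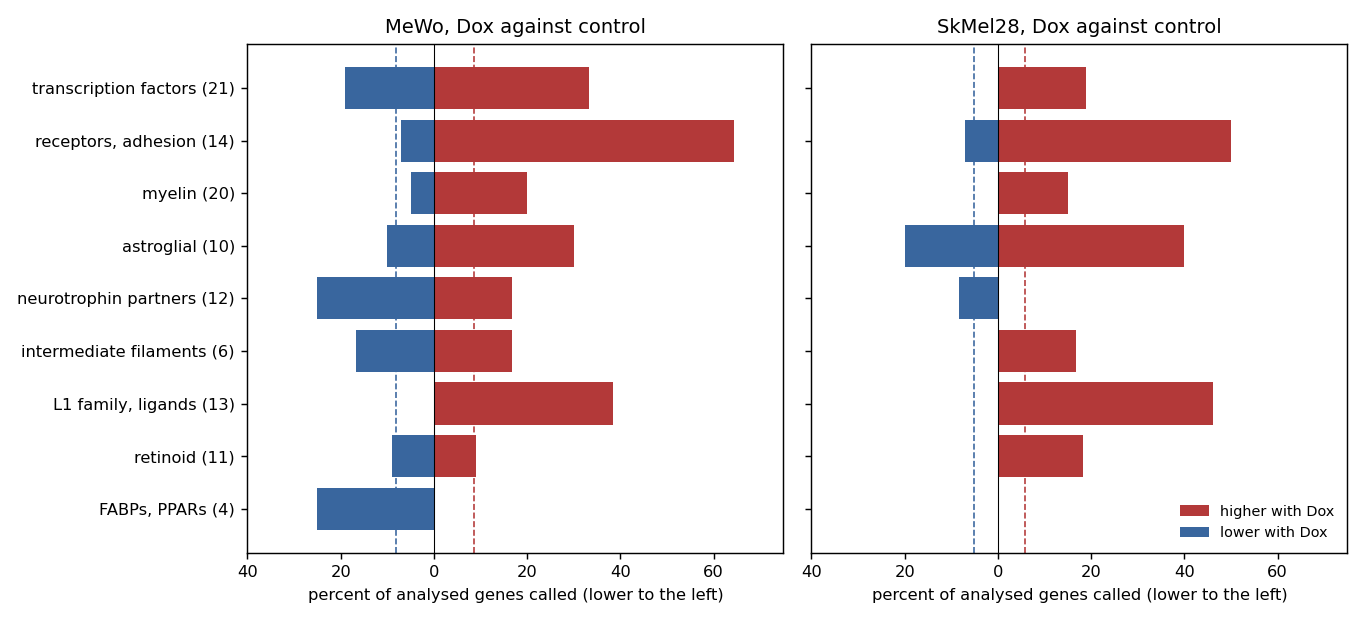
Percent of the analysed genes of the 9 lists with at least 4 of them (number in brackets) that were called higher (right of 0) or lower (left of 0) with Dox in MeWo and SkMel28, with dashed lines at the percent of all 12616 genes called in that direction. Of receptors and adhesion molecules, 9 of 14 were called higher in MeWo and 7 of 14 in SkMel28, and lists of 4 to 21 genes give coarse percentages. The 9 include GAP43 and NRP1, which entered the table only through MeWo Dox.

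The changes in the lines differed for 19 of the 112 genes (17.0%, against 7.09% of all genes), 7 more positive in MeWo and 12 more positive in SkMel28. With scaling to the spike-ins there were 28, split 20 and 8, so the direction of this split depends on the scaling. That scaling moved all genes the same way, with 1524 called, 1362 more positive in MeWo and 162 in SkMel28, and it shifted the median difference by 0.30. Genes more positive in MeWo included ITGA4 (difference 2.79, SE 0.34, limma adjusted p = 0.000141), LINGO1 (1.95, limma adjusted p = 0.00261) and ERBB3 (1.13, limma adjusted p = 0.000717). Those more positive in SkMel28 included TFAP2A (−1.81, limma adjusted p = 1.09e-05) and SYNM (−1.51, limma adjusted p = 0.00198). TFAP2A, the AP-2α factor that works with MITF on pigment genes, was at 673, 664 and 710 in MeWo control and at 485, 332 and 381 in MeWo Dox. In SkMel28 it was at 141, 155 and 150 without Dox and at 311, 296 and 299 with Dox. It fell in MeWo (log2 −0.79) and rose in SkMel28 (log2 1.02), and the levels of the lines came closer with Dox. TFAP2A overlaps TFAP2A-AS1 on the opposite strand.

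**Figure D5:**
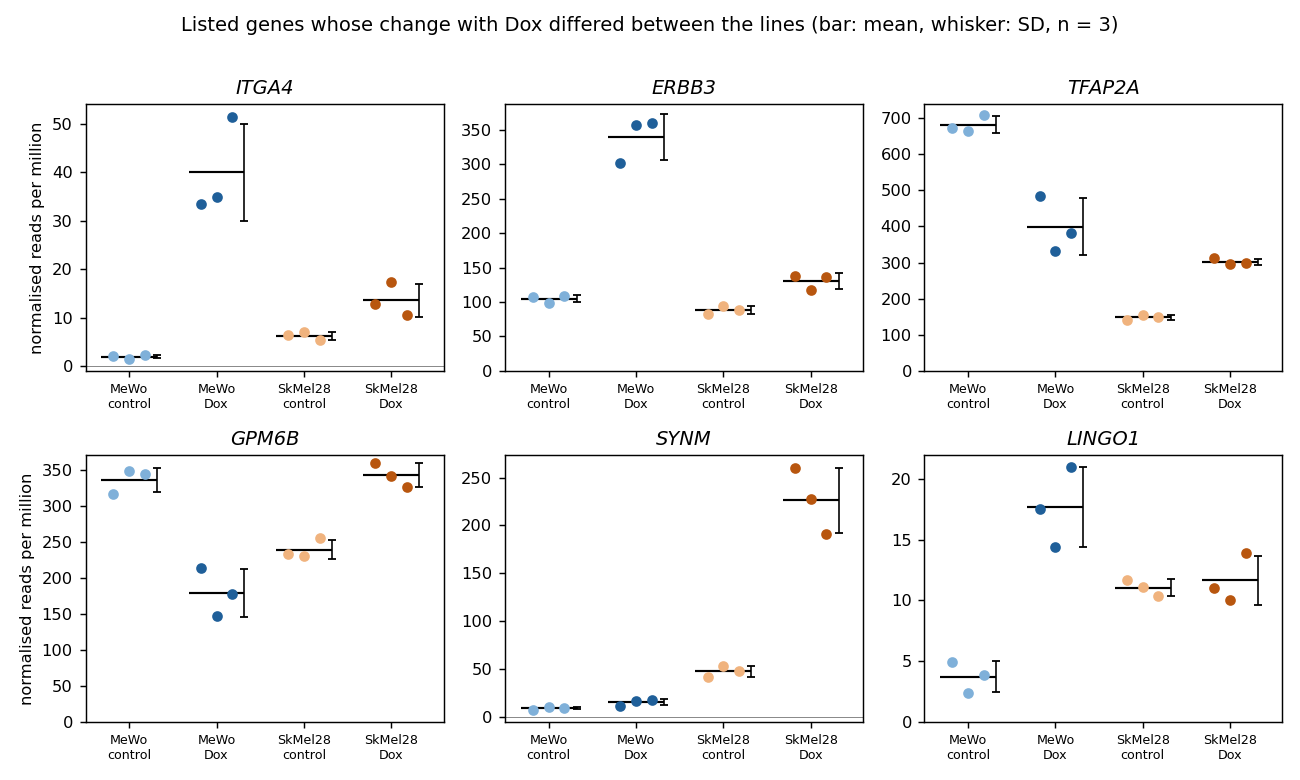
Level (normalised reads, own linear scale per panel) of ITGA4, ERBB3, TFAP2A, GPM6B, SYNM and LINGO1 in each library, with a bar for the mean and a whisker for the SD of each group (n = 3). ITGA4, ERBB3 and LINGO1 rose more in MeWo, SYNM rose more in SkMel28, and TFAP2A and GPM6B fell in MeWo and rose in SkMel28.

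Without Dox the lines differed at 75 of the 112 listed genes (67.0%), 37 higher and 38 lower in SkMel28, against 26.6% and 24.8% of all genes. RXRA (log2 −0.40, limma adjusted p = 0.0248) and RXRB (log2 −0.87, limma adjusted p = 0.000233) were both lower in SkMel28 control, in the direction of RXRG, and the RXRA call was lost with scaling to the spike-ins (−0.26), with DESeq2, and without MeWo control replicate 1 (−0.33), MeWo control replicate 3 (−0.41) or SkMel28 control replicate 2 (−0.31).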

How the data were processed

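Gene levels were deposited by the authors as a normalised signal: per the labels, reads were trimmed with cutadapt 2.8, checked with FastQC 0.11.7, mapped to hg38 with STAR 2.5.1b and normalised with edgeR. The counter, annotation and strand are not given in the sources used here. Every value was a whole multiple of 1 read (100% within 0.02 reads), so reads were recovered, and edgeR's trimmed-mean normalisation of them matched the deposited values within 1.63e-09. Listed features reach a level of 1 in at least 3 libraries. The 67 spike-ins were set aside. Group means of log2(level + 1) were fitted with limma 3.58.1 (R 4.3.3, mean-variance trend, two-sided tests, Benjamini-Hochberg over 12616 genes). Counting intervals are exact binomial (95%).

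The 7 genes, the 10 lists and the tests were chosen with earlier results of these data known. Most list genes named with values are those called with the greatest change per line, up to 6 in each direction, and the 4 greatest interactions each way, where the higher group had a mean level of 5 or more. SOX10, GAP43, NRP1, MBP, S100B, CHL1, PPARA, TGM2 and AQP11 fall outside this rule and were given values with their results known. RXRA and RXRB were named as paralogs of RXRG. A few genes this rule or the likeness ranking would name are not reported here singly. Alternatives were edgeR 4.0.16 and DESeq2 1.42.0 on recovered reads, spike-in and quantile scaling, pseudocounts of 0.1 and 5, a stricter filter (5 in 3 libraries), no trend, a replicate block, each line alone and each library left out. Coordinates are from GENCODE 44 (hg38), which held 11655 of the 12616 symbols.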

Additional observations from a re-analysis of the deposited data

Results flagged for a closer look

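For 9 of the named list genes the change with Dox differed between the lines by the interaction term of the limma fit over 3 libraries per group. A called difference was itself a ground for naming a gene, so this number follows from the choice and is not a result. Of the 112 listed genes 17.0% were called for the difference, against 7.09% of all genes. Values are the MeWo log2 change minus the SkMel28 log2 change. More positive in MeWo were ITGA4 by 2.79 (adjusted p = 0.000141), LINGO1 by 1.95 (adjusted p = 0.00261), ERBB3 by 1.13 (adjusted p = 0.000717) and the ankyrin ANK3 by 2.13 (adjusted p = 0.0136). Their roles are not read as a theme. Of the 14 receptor and adhesion genes, 3 were called more positive in MeWo and 1, PMP22, more positive in SkMel28. The 3 include GAP43, which entered the table only through MeWo Dox. TFAP2A (−1.81, adjusted p = 1.09e-05) and GPM6B (−1.44, adjusted p = 0.000141) fell in MeWo and rose in SkMel28, although the SkMel28 call of GPM6B was lost with scaling to the spike-ins, without a mean-variance trend and without SkMel28 Dox replicate 1 (0.48). GPM6B encodes a membrane proteolipid of neurons and oligodendrocytes and overlaps OFD1 on the opposite strand.

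SYNM (−1.51, adjusted p = 0.00198), ENPP2 (−2.0, adjusted p = 0.0171) and DHRS3 (−1.98, adjusted p = 0.0407) were more positive in SkMel28. The ENPP2 difference was not called with edgeR or with a pseudocount of 0.1, and the ANK3 difference was not called with edgeR (adjusted p = 0.056). DHRS3 was at the floor in both MeWo groups, and its difference turned sign with edgeR and DESeq2 but not with pseudocounts of 0.1 or 5. Why the lines differed was not tested, and line and medium cannot be told apart.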

How the results depend on the processing

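Of the 112 listed genes, 45 were called in MeWo, 31 in SkMel28, 19 in the difference between the changes and 75 between the control groups. With each line fitted alone the MeWo count was 23 (813 over all genes, against 2107 in the main fit). Leaving out 1 library at a time gave 28 (without MeWo Dox replicate 3) to 57 (without MeWo Dox replicate 1) in MeWo, and 14 to 37 for the difference, 37 being without MeWo Dox replicate 1. Counts over all genes moved the same way. In MeWo they were 1301 without MeWo Dox replicate 3 and 3913 without replicate 1. The difference was called for 894 genes, and for 3115 without MeWo Dox replicate 1. Other settings kept the 4 counts of listed genes within 1.5 times, from 22 to 39 in SkMel28 and from 62 to 78 between controls. The DHRS3 difference, −1.98, reversed to 0.89 with edgeR and 0.22 with DESeq2. The cause was not tested.

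With a replicate block the counts were 43, 30, 18 and 75. Same-numbered control and Dox libraries deviated together with r of −0.30 to 0.047 in MeWo and −0.10 to 0.29 in SkMel28 (8073 genes), so the numbers were not taken to pair them, and not every library correlated best with its own number. Depth limits NGFR, NES and MYRF in SkMel28 and SCRG1 in MeWo, where no library held more than 14 reads.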
